A study of Homo sapiens with 6 samples.

Results

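The proteasome genes were taken as a list of 42 symbols for the core, cap, activator and assembly genes of the proteasome, matched by Ensembl identifier among the 34869 genes of the deposited FPKM table (read counts divided by gene length and by library size). All 42 were found, and 40 averaged at least 1 FPKM over the 6 samples and were tested among 12782 genes. The cells were NCI-H295R, an established human adrenocortical carcinoma line, grown with insulin, transferrin and selenium supplement and transduced with lentivirus in both groups. The lentivirus carried a non-targeting short hairpin RNA in the control group, shCtrl, and a hairpin against TPD52 in the other, shTPD52, with 3 libraries each. The labels say neither how many hairpin sequences were used nor whether replicates were separate cultures, so the p-values here reflect the spread among these libraries alone, which may be technical. The design sets the knockdown of TPD52 against the control hairpin.

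The proteasome degrades proteins tagged with ubiquitin. Its 20S core is a barrel of stacked alpha and beta rings, the alpha subunits gating the entry and the beta subunits PSMB5, PSMB6 and PSMB7 cutting the chain. The 19S cap recognises ubiquitin, and its ATPases unfold the substrate and thread it into the core. In cells exposed to interferon, PSMB8, PSMB9 and PSMB10 take the places of the cutting subunits to form the immunoproteasome, and the PSME1 and PSME2 proteins form a ring-shaped activator that opens the core without ubiquitin. When proteasome activity falls short, the transcription factor NFE2L1 with a small MAF partner raises the proteasome genes together through antioxidant response elements.

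Of the 40 proteasome genes tested, 9 rose with the TPD52 hairpin and none fell, while 31 did not pass. At an unadjusted p under 0.05, 20 were higher and 0 lower. The share of all genes under that unadjusted p was not counted, here or for the lists below. On the recovered reads, limma-voom called 11 (27.5%) higher and 0 lower, where it called 6.0% of all genes higher and 16.7% lower. Among all genes tested, 5.63% were called higher and 12.7% lower (limma with Benjamini-Hochberg adjustment over all genes, threshold 0.05), against 22.5% of the proteasome genes called higher. The risers were PSME1, PSMA3, PSMB10, PSMA4, PSMB9, PSME2, PSMB7, PSMB1 and POMP, from both rings of the core, the immunoproteasome, the activators and the assembly factors. None of the 17 cap subunits passed. The median log2 difference of the 40 was 0.26, against -0.11 for all genes tested, and 36 of the 40 values were positive. All 3 shTPD52 libraries lay above all 3 shCtrl libraries for 22 of the 40 genes (55.0%), where 13.8% of all genes did so, and all 3 lay below for 1, PSMD7, where 28.3% of all genes did so. These counts include PSMA1, which passed the filter only through its shTPD52 values. Without it, 19 of 39 were higher at an unadjusted p under 0.05, 35 were positive and 21 did not overlap upwards, while the 9 called and the median of 0.26 stood.

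**Figure D1:**
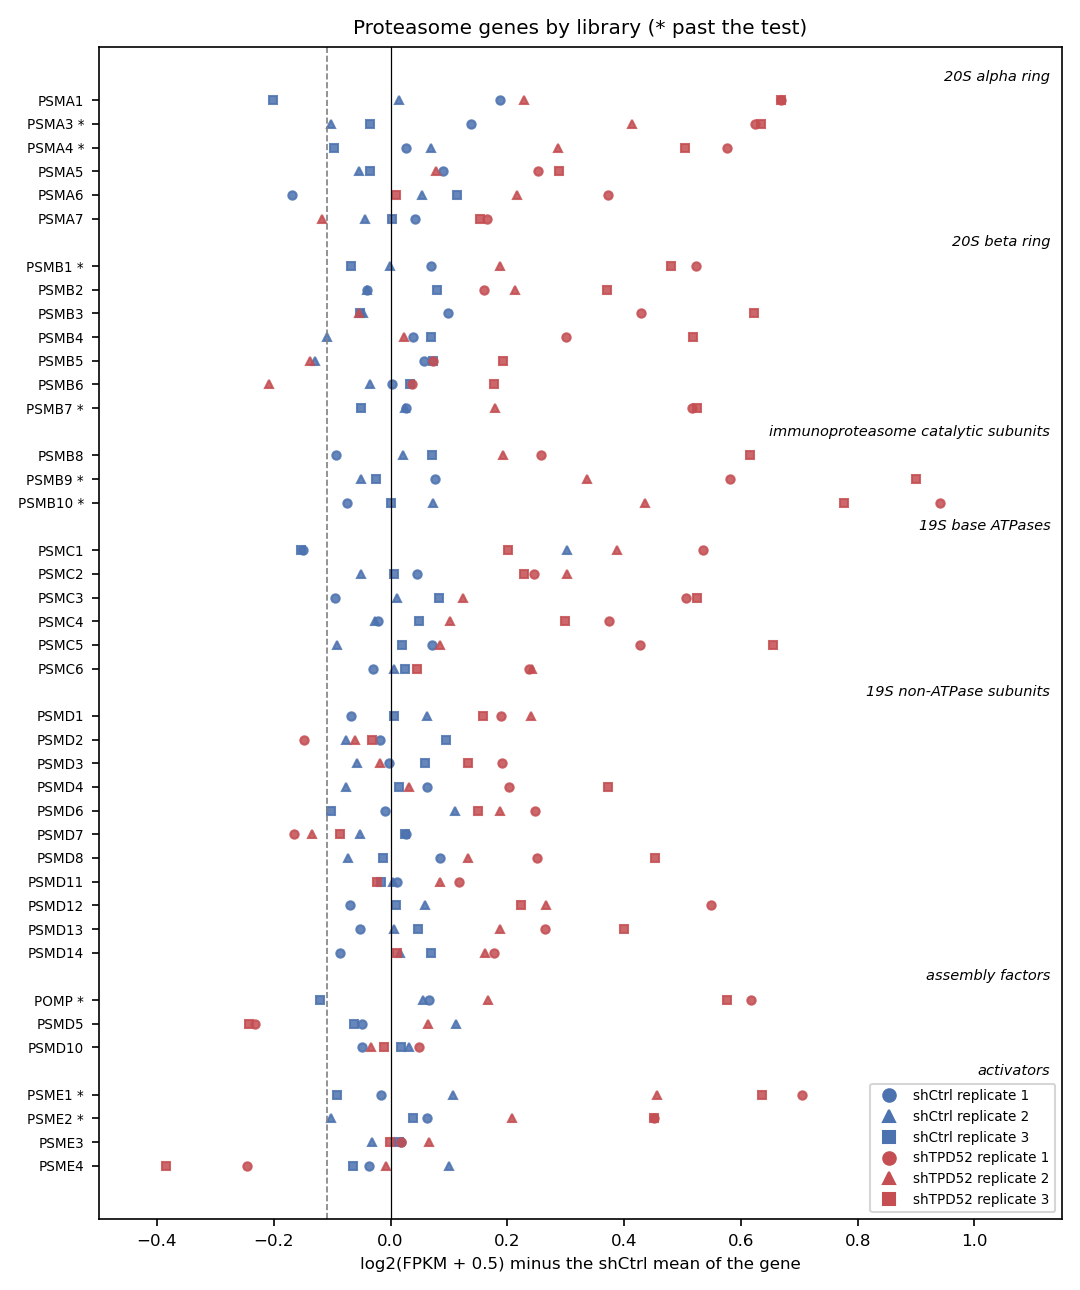
Each row is 1 of the 40 proteasome genes tested and each point 1 library, placed by its log2(FPKM + 0.5) minus the mean of that gene over the 3 shCtrl libraries. Blue marks shCtrl and red shTPD52, the shape gives the replicate, the dashed line is the median log2 difference of all genes tested (-0.11), and an asterisk marks the 9 genes that passed, whose red points all lie right of their blue points.

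The libraries held between 29544341 and 38396624 reads, worked back from the FPKM. TPD52 itself measured 1.42, 1.18 and 1.29 FPKM in shCtrl and 0.630, 0.635 and 0.655 FPKM in shTPD52 (replicates 1, 2 and 3 in each), so the labels match their target. Reads of mitochondrially encoded genes made up 17.5% to 18.5% of the shCtrl libraries and 19.6% to 24.3% of the shTPD52 libraries, and their part in the results below was not tested. When FPKM were rescaled to the other reads, 12 proteasome genes (30%) were called higher and none lower. Of all genes, 7.64% were called higher and 9.49% lower in that fit. Along the first principal component, which held 61.0% of the variance, shTPD52 replicate 2 stood at 0.29, between the shCtrl libraries (-24.1 to -16.4) and shTPD52 replicates 1 and 3 (27.3 and 35.3). Adrenocortical markers were present in every library, their 8 genes summing to 397 to 463 FPKM. The summed levels of marker genes were 0.0909 to 0.166 FPKM for leukocytes, 0.0509 to 0.137 FPKM for endothelium, 0.673 to 1.20 FPKM for fibroblasts and 0.306 to 1.23 FPKM for adrenal medulla. The medulla sum came mostly from CHGA and was 0.306 to 0.586 FPKM in shCtrl and 0.568 to 1.23 FPKM in shTPD52. In bulk RNA, fewer cells of a kind and less RNA per cell cannot be told apart.

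The count of risers depended on single libraries and on scaling. Leaving out shCtrl replicate 1, 2 or 3 left 1, 1 and 0 proteasome genes called higher, and leaving out shTPD52 replicate 1 or 3 left 0 and 3. The calls over all genes moved too, with 0.79, 1.44, 0.39, 0.51 and 2.44% called higher in the same order. Without shTPD52 replicate 2, 23 were called higher and 2, PSMD5 and PSME4, lower. In that fit 12.6% of all genes were called higher and 33.0% lower. Without the filter on low values, which raised the number of genes adjusted over, only PSME1 passed, and without the variance trend 5 passed. Of all genes, 0.51% and 4.69% were called higher in these fits. Over all genes, the deposited scale called 720 higher and 1621 lower. Median-ratio scaling, which moved the median of all genes from -0.11 to 0.00054, called 1083 higher and 1038 lower, quantile normalization 1152 and 1188, rescaling to reads outside the mitochondrial genome 976 and 1213, and a correction for gene length and GC content 1359 and 1274. The proteasome genes called higher under these 4 numbered 16, 12, 12 and 18, with none lower, and their median stood 0.38, 0.27, 0.38 and 0.31 above that of all genes on the log2 scale, compared with 0.37 on the deposited scale.

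**Figure D2:**
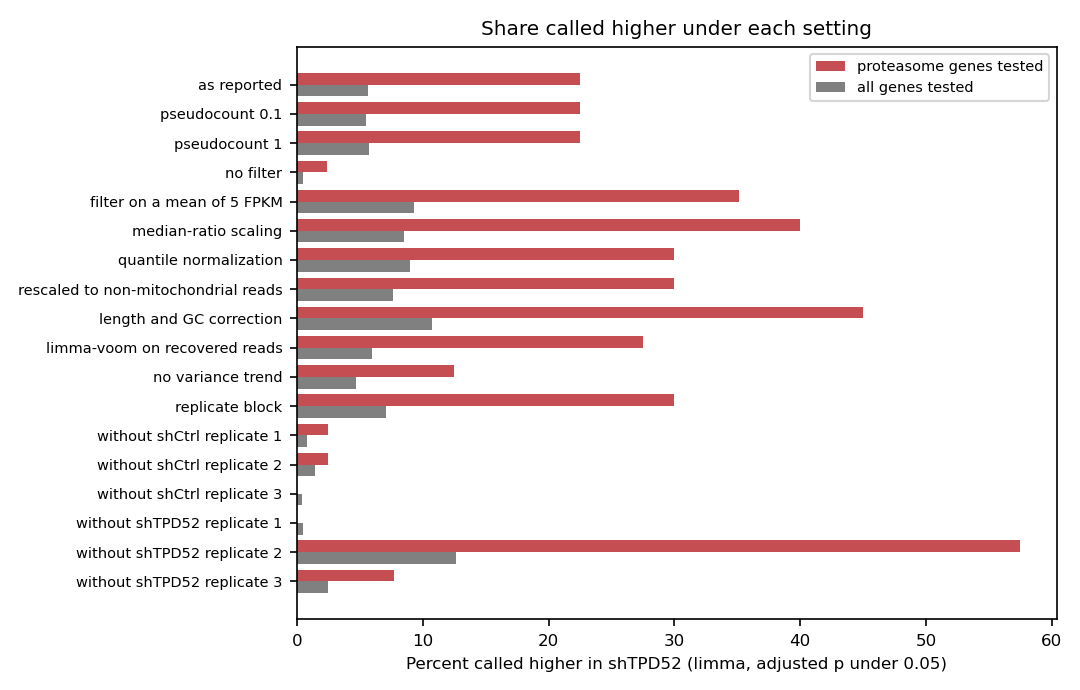
Bars give the percent of tested genes called higher in shTPD52 under the reported setting and 17 alternatives, red for the proteasome genes and grey for all genes. The red bar is 22.5% as reported, 0 without shCtrl replicate 3 or shTPD52 replicate 1, and 57.5% without shTPD52 replicate 2.

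Among the 7 alpha ring genes, PSMA3 and PSMA4 rose, 4 did not pass and PSMA2 was under the filter; the median log2 difference of the 6 tested was 0.33, against 0.21 without PSMA1, which entered the test only through its shTPD52 values. Without shTPD52 replicate 1 the median was 0.18, but PSMA1 fell under the filter in that fit and was not part of it. PSMA3 (ENSG00000100567, GRCh38 chromosome 14, 58244831 to 58272012, plus strand) stood at 31.5, 26.6 and 27.9 FPKM in the shCtrl libraries (replicates 1, 2 and 3) and at 44.3, 38.2 and 44.6 FPKM in the shTPD52 libraries. Every shTPD52 library was above every shCtrl library, and the mean rose 1.48-fold, from 28.7 ± 2.53 to 42.4 ± 3.61 FPKM (SD, n = 3 each; log2 fold change 0.56, SE 0.10, limma's adjusted p = 0.0146). PSMA4 (ENSG00000041357, GRCh38 chromosome 15, 78540405 to 78552419, plus strand) stood at 15.6, 16.1 and 14.3 FPKM in the shCtrl libraries (replicates 1, 2 and 3) and at 23.1, 18.8 and 21.9 FPKM in the shTPD52 libraries. It rose by 0.46 in log2 units (SE 0.10, limma's adjusted p = 0.0244), with shTPD52 replicate 2 nearest to the controls. PSMA7, with the lowest log2 difference of the 6, had 59.5, 56.1 and 57.9 FPKM in shCtrl and 64.9, 53.3 and 64.4 FPKM in shTPD52, and the groups overlapped (log2 fold change 0.07, SE 0.09, limma's adjusted p = 0.621). Its sign flips with quantile normalization. PSMA5 had a log2 difference of 0.21 (limma's adjusted p = 0.133) and PSMA6 of 0.20 (limma's adjusted p = 0.295). PSMA3 lost its call without shCtrl replicate 2 or 3 or shTPD52 replicate 1 (limma's adjusted p 0.0590, 0.0775 and 0.0689), and PSMA4 without any single library but shTPD52 replicate 2 (limma's adjusted p up to 0.110).

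The levels of 3 alpha genes stood far below the rest, although each intact core holds every alpha subunit in equal number. PSMA1 had 0.947, 0.783 and 0.604 FPKM in shCtrl and 1.52, 0.989 and 1.52 FPKM in shTPD52. PSMA2 had 0.592, 0.617 and 0.683 FPKM in shCtrl and 0.541, 0.618 and 0.432 FPKM in shTPD52. PSMA6 had 2.67, 3.20 and 3.35 FPKM in shCtrl and 4.11, 3.64 and 3.08 FPKM in shTPD52. The other 4 had group means between 15.3 and 60.9 FPKM. The PSMA1 values rest on 68 to 99 reads in shCtrl and 110 to 178 in shTPD52, and those of PSMA2 on 158 to 211 and 134 to 189. In GENCODE release 29, another gene on the same strand covers 24.7% of the exon bases of PSMA1, 14.6% of those of PSMA2 and 14.1% of those of PSMA6. How reads shared between genes were counted is not given in the sources used here, so these levels are uncertain. All 3 shTPD52 libraries were above the shCtrl libraries for PSMA1, which did not pass (log2 fold change 0.52, SE 0.18, limma's adjusted p = 0.0794) and entered the test only through its shTPD52 values, its shCtrl mean being 0.778 FPKM. The groups overlapped for PSMA2 and PSMA6.

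Of the 7 beta ring genes, PSMB1 and PSMB7 rose and 5 did not pass (7 values positive, and 5 with quantile normalization or correcting for length and GC). Their median log2 fold change was 0.28, against 0.19 without shTPD52 replicate 3 and 0.41 without shTPD52 replicate 2. PSMB7 (ENSG00000136930, GRCh38 chromosome 9, 124353466 to 124415444, minus strand), which carries the trypsin-like activity, stood at 131, 131 and 124 FPKM in the shCtrl libraries (replicates 1, 2 and 3) and at 185, 146 and 186 FPKM in the shTPD52 libraries. It was the most abundant of the 42 genes per length. It rose by 0.41 in log2 units (SE 0.11, limma's adjusted p = 0.0370), from 129 ± 3.95 to 172 ± 22.6 FPKM (SD, n = 3 each). PSMB1 (ENSG00000008018, GRCh38 chromosome 6, 170535117 to 170553341, minus strand), a structural subunit, stood at 86.7, 82.5 and 78.8 FPKM in the shCtrl libraries (replicates 1, 2 and 3) and at 119, 94.2 and 115 FPKM in the shTPD52 libraries. The groups did not overlap, and it rose by 0.40 in log2 units (SE 0.10, limma's adjusted p = 0.0372). That call ended with quantile normalization (log2 fold change 0.28, limma's adjusted p = 0.0542) and when corrected for length and GC (0.31, adjusted p = 0.0819). Both genes lost their call without the variance trend and without any single library but shTPD52 replicate 2 (limma's adjusted p up to 0.142 and 0.138).

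The other cutting subunits gave values near 0. PSMB5, with the chymotrypsin-like activity, the main target of proteasome inhibitor drugs, had 80.5, 70.7 and 81.4 FPKM in shCtrl and 81.4, 70.3 and 88.5 FPKM in shTPD52 (log2 fold change 0.04, SE 0.11, limma's adjusted p = 0.789). PSMB6, with the caspase-like activity, had 97.2, 94.8 and 99.4 FPKM in shCtrl and 99.6, 84.0 and 109.9 FPKM in shTPD52 (log2 fold change 0.00, SE 0.10, limma's adjusted p = 0.993). For both the shTPD52 libraries spanned the shCtrl range, and the signs flip with quantile normalization and when corrected for length and GC. The structural subunits PSMB2, PSMB3 and PSMB4 had log2 differences of 0.25, 0.33 and 0.28 and did not pass (limma's adjusted p = 0.0735, 0.167 and 0.142). In PSMB3 and PSMB4, shTPD52 replicate 2 stood among the controls, at 80.0 and 117 FPKM, while replicates 1 and 3 reached 112 and 128 FPKM and 141 and 164 FPKM.

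**Figure D3:**
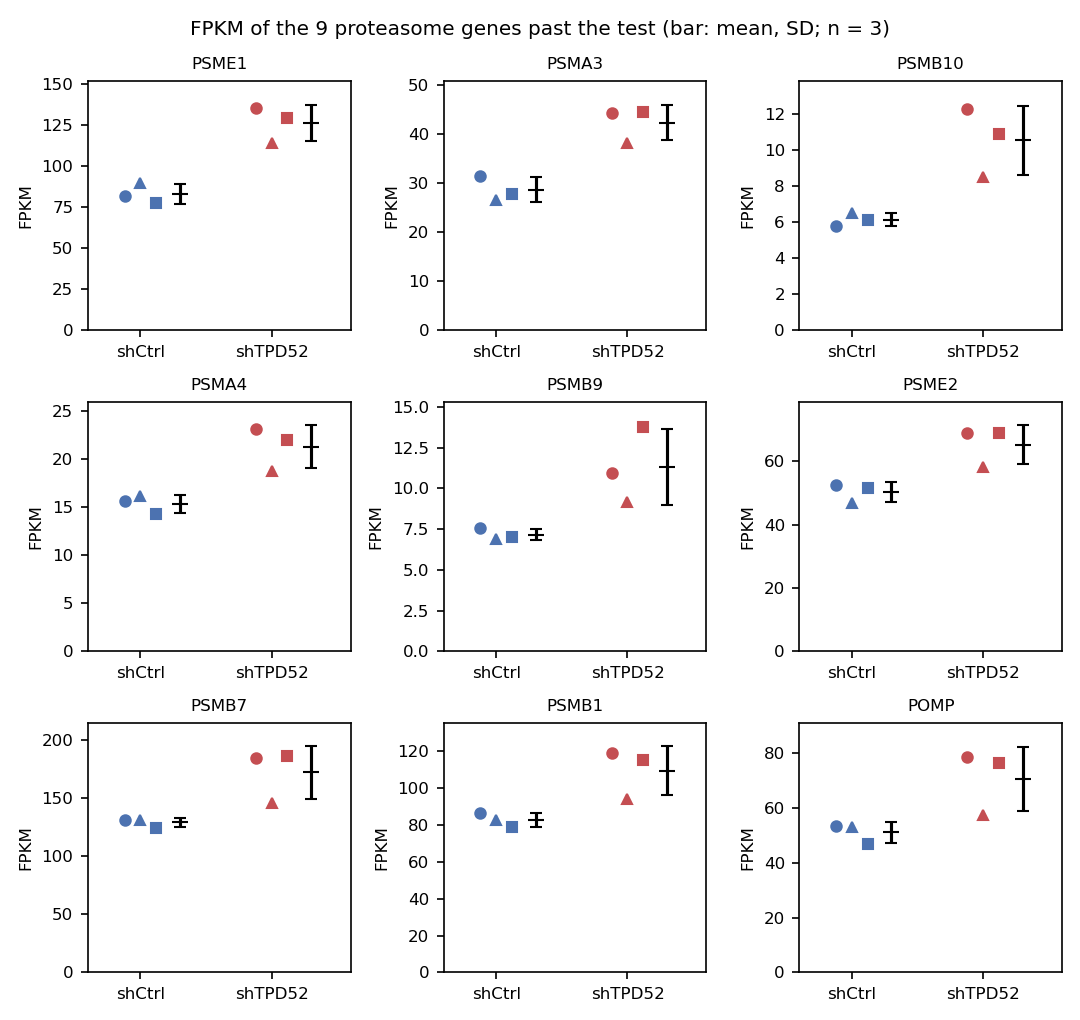
FPKM of the 9 proteasome genes that passed, in order of p, with 1 point per library (circle, triangle and square for replicates 1, 2 and 3; blue shCtrl, red shTPD52) and the group mean with its SD beside the points. In each panel the red points lie above the blue ones, and shTPD52 replicate 2 (red triangle) is the lowest red point.

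All 3 immunoproteasome genes had every shTPD52 library above every shCtrl library, where 13.8% of all genes did so. PSMB9 and PSMB10 passed (median log2 fold change 0.61). PSMB10 (ENSG00000205220, GRCh38 chromosome 16, 67934502 to 67937087, minus strand), which replaces PSMB7, stood at 5.81, 6.5 and 6.15 FPKM in the shCtrl libraries (replicates 1, 2 and 3) and at 12.3, 8.50 and 10.9 FPKM in the shTPD52 libraries. This 1.71-fold rise in mean FPKM, from 6.15 ± 0.341 to 10.5 ± 1.91 FPKM (SD, n = 3 each), gave the highest log2 difference of the 40 genes tested (log2 fold change 0.72, SE 0.13, limma's adjusted p = 0.0170). The values rest on 323 to 369 reads in shCtrl and 504 to 680 in shTPD52, and 34.8% of its exon bases are shared with another gene on its strand in GENCODE release 29. PSMB9 (ENSG00000240065, GRCh38 chromosome 6, 32844136 to 32859585, plus strand), which replaces PSMB6, stood at 7.58, 6.90 and 7.03 FPKM in the shCtrl libraries (replicates 1, 2 and 3) and at 11.0, 9.17 and 13.8 FPKM in the shTPD52 libraries and rose 1.58-fold in the mean (log2 fold change 0.61, SE 0.14, limma's adjusted p = 0.0283). PSMB8, its neighbour on chromosome 6 and the replacement for PSMB5, had 10.2, 11.1 and 11.5 FPKM in shCtrl and 13.1, 12.5 and 17.0 FPKM in shTPD52 and did not pass (log2 fold change 0.36, SE 0.12, limma's adjusted p = 0.0778). It passed when corrected for length and GC (log2 fold change 0.41, limma's adjusted p = 0.0495) and without shTPD52 replicate 2 (0.44, adjusted p = 0.0215). Without shTPD52 replicate 1 or any 1 shCtrl replicate, neither PSMB9 nor PSMB10 passed, and PSMB9 was also lost without shTPD52 replicate 3 (limma's adjusted p up to 0.110 and 0.0784).

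Per length, the immunoproteasome genes were a small part of the catalytic subunit RNA in both groups. As a share of the summed FPKM of the 6 catalytic genes they made up 7.09, 7.62 and 7.48% in shCtrl replicates 1, 2 and 3 and 9.04, 9.14 and 9.78% in shTPD52 replicates 1, 2 and 3. The groups did not overlap, and shTPD52 replicate 2 lay with its group here. The ratio of PSMB9 to PSMB6 was 0.074 ± 0.0037 in shCtrl and 0.115 ± 0.0091 in shTPD52 (SD, n = 3 each). That of PSMB10 to PSMB7 was 0.0477 ± 0.0030 and 0.0611 ± 0.0046, though PSMB7 itself rose. That of PSMB8 to PSMB5 was 0.142 ± 0.0150 and 0.177 ± 0.0153. Ratios within a library do not change when all its values are multiplied by a common factor. Quantile normalization and the correction for length and GC shift genes differently within a library, and the ratios were not recomputed under them. These sums and ratios were not tested.

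**Figure D4:**
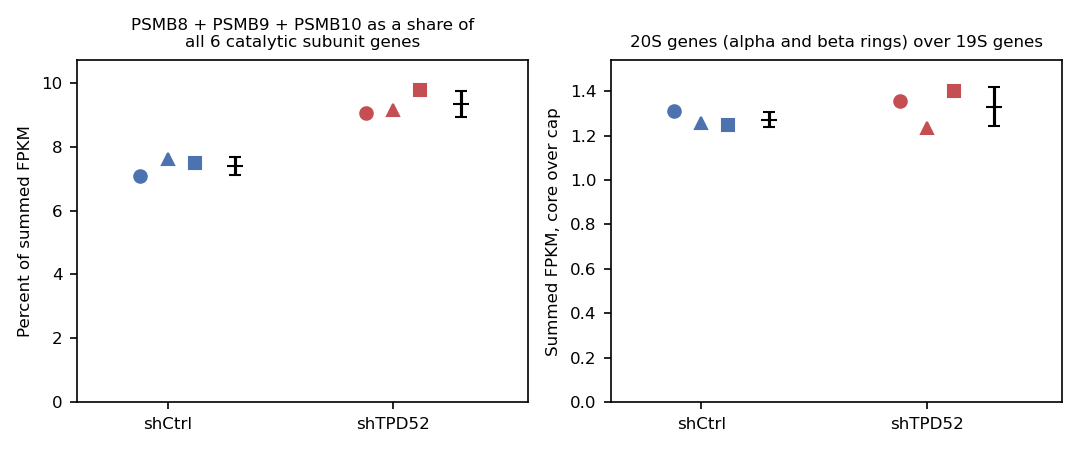
Left, the summed FPKM of PSMB8, PSMB9 and PSMB10 as a percent of all 6 catalytic genes, and right, the summed FPKM of the 14 constitutive 20S genes over that of the 17 cap genes, with 1 point per library (shapes give replicates 1, 2 and 3) and the group mean with its SD. On the left the shTPD52 libraries (9.04, 9.14 and 9.78%) all lie above the shCtrl libraries (7.09, 7.62 and 7.48%), and on the right the groups overlap (1.31, 1.26 and 1.25 in shCtrl, 1.35, 1.23 and 1.40 in shTPD52).

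PSME1 and PSME2, the interferon-responsive activator genes, rose, and PSME3 and PSME4 did not pass. PSME1 (ENSG00000092010, GRCh38 chromosome 14, 24136158 to 24138967, plus strand) stood at 82.0, 89.3 and 77.7 FPKM in the shCtrl libraries (replicates 1, 2 and 3) and at 135, 114 and 129 FPKM in the shTPD52 libraries. It had the smallest p of the 40 genes tested and rose 1.52-fold, from 83.0 ± 5.87 to 126 ± 11.0 FPKM (SD, n = 3 each; log2 fold change 0.60, SE 0.09, limma's adjusted p = 0.0116). PSME2 (ENSG00000100911, GRCh38 chromosome 14, 24143362 to 24147570, minus strand), which lies 4394 bases from it, stood at 52.5, 46.7 and 51.6 FPKM in the shCtrl libraries (replicates 1, 2 and 3) and at 68.8, 58.0 and 68.8 FPKM in the shTPD52 libraries and rose by 0.37 in log2 units (SE 0.09, limma's adjusted p = 0.0353). PSME3, the activator of nuclear proteasomes, had 18.2, 17.5 and 18.1 FPKM in shCtrl and 18.2, 18.8 and 17.9 FPKM in shTPD52, with groups that overlapped (log2 fold change 0.03, SE 0.07, limma's adjusted p = 0.804). PSME4, which encodes the large activator PA200, had 8.68, 9.59 and 8.51 FPKM in shCtrl and 7.44, 8.86 and 6.71 FPKM in shTPD52 (log2 fold change -0.21, SE 0.12, limma's adjusted p = 0.210). Its shTPD52 replicates 1 and 3 were below every control and replicate 2 was among them, and its log2 fold change was -0.32 without that library (limma's adjusted p = 0.0246) and turned to 0.0079 when corrected for length and GC. PSME1 kept its call under the 11 alternatives that keep all libraries and lost it without shCtrl replicate 1 or 3 or shTPD52 replicate 1 (limma's adjusted p 0.0564, 0.0711 and 0.0562), while PSME2 lost it without any single library but shTPD52 replicate 2 (adjusted p up to 0.125).

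Of the assembly factors, POMP rose, PSMD5 and PSMD10 did not pass and PSMD9 was under the filter. POMP (ENSG00000132963, GRCh38 chromosome 13, 28659104 to 28678925, plus strand), which guides beta ring assembly and is degraded by the finished core, stood at 53.3, 52.9 and 46.8 FPKM in the shCtrl libraries (replicates 1, 2 and 3) and at 78.4, 57.2 and 76.2 FPKM in the shTPD52 libraries. It rose by 0.45 in log2 units (SE 0.13, limma's adjusted p = 0.0466), close to the threshold, and lost its call when corrected for length and GC (log2 fold change 0.33, limma's adjusted p = 0.138), without the variance trend and without any single library but shTPD52 replicate 2 (adjusted p up to 0.162). PSMD5, a chaperone of the cap base as PSMD9 and PSMD10 are, had 12.3, 13.8 and 12.2 FPKM in shCtrl and 10.8, 13.3 and 10.7 FPKM in shTPD52 (log2 fold change -0.14, SE 0.11, limma's adjusted p = 0.382), and without shTPD52 replicate 2 it was called lower (log2 fold change -0.24, limma's adjusted p = 0.0473). PSMD10, or gankyrin, had 12.7, 13.5 and 13.3 FPKM in shCtrl and 13.6, 12.9 and 13.1 FPKM in shTPD52 (log2 fold change 0.00092, SE 0.08, limma's adjusted p = 0.995), its sign flipping when corrected for length and GC. PSMD9 had 0.612, 0.630 and 0.689 FPKM in shCtrl and 0.471, 0.447 and 0.632 FPKM in shTPD52 from 122 to 223 reads.

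The 4 chaperones that build the alpha ring, PSMG1 to PSMG4, were listed outside the 42. PSMG1 and PSMG2, which work as a pair, rose, and PSMG3 and PSMG4 did not pass (median log2 fold change 0.40). This is 50% of the 4, where 5.63% of all genes were called higher. PSMG1 had 18.6, 17.9 and 21.8 FPKM in shCtrl and 27.3, 23.1 and 28.5 FPKM in shTPD52 and rose by 0.43 in log2 units (SE 0.11, limma's adjusted p = 0.0382). PSMG2 had 8.24, 7.83 and 7.11 FPKM in shCtrl and 10.3, 9.0 and 11.2 FPKM in shTPD52 and rose by 0.37 (SE 0.11, limma's adjusted p = 0.0481). The groups did not overlap for either. PSMG3 had a log2 difference of 0.42 (limma's adjusted p = 0.0731). Both calls ended without the filter, without the variance trend and without any single library but shTPD52 replicate 2, and that of PSMG1 also when corrected for length and GC (limma's adjusted p up to 0.128 for PSMG1 and 0.173 for PSMG2).

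In the 19S cap, none of the 6 ATPase genes and none of the 11 other subunit genes passed limma's adjusted threshold, with median log2 differences of 0.32 and 0.19. At an unadjusted p under 0.05, 5 ATPases and 3 other subunits were higher and none lower, but the share of all genes there was not counted. On the recovered reads, limma-voom called 2 ATPases, PSMC2 and PSMC3, higher, where it called 6.0% of all genes higher. The calls here moved with the scaling. Median-ratio scaling called 3 ATPases and 4 other subunits higher, where it called 8.47% of all genes higher. Correcting for length and GC called 5 and 5, where it called 10.7% of all genes higher. All 3 shTPD52 libraries stood above the controls for 5 ATPases (83.3%) and 5 other subunits (45.5%), where 13.8% of all genes did so. The summed FPKM of the 14 constitutive core genes was 757 ± 23.0 in shCtrl and 916 ± 119.8 in shTPD52, and that of the 17 cap genes 596 ± 11.6 and 686 ± 46.6 (SD, n = 3 each).

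PSMC1 to PSMC6 form the ring that unfolds substrates. PSMC5 had the highest log2 difference of the 6 (17.1, 15.3 and 16.5 FPKM in shCtrl and 22.1, 17.3 and 25.9 FPKM in shTPD52; log2 fold change 0.39, SE 0.14, limma's adjusted p = 0.0866), with shTPD52 replicate 2 close to the controls. PSMC6 had the lowest (17.0, 17.5 and 17.7 FPKM in shCtrl and 20.6, 20.7 and 18.0 FPKM in shTPD52; log2 fold change 0.17, SE 0.08, limma's adjusted p = 0.166). PSMC2, with the smallest p of the ring, had 12.2, 11.4 and 11.9 FPKM in shCtrl and 14.1, 14.7 and 13.9 FPKM in shTPD52 (log2 fold change 0.26, limma's adjusted p = 0.0525) and passed under 7 of the 17 alternatives. 75.8% of the exon bases of PSMC1 are shared with NRDE2 on the opposite strand in GENCODE release 29. The strand setting of the counting is not given in the sources used here, so reads of those genes cannot be told apart. The groups overlapped for PSMC1 alone of the ring.

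Of the other cap subunits, PSMD12, a lid scaffold, had the highest log2 difference, with 9.80, 10.8 and 10.4 FPKM in shCtrl and 15.3, 12.5 and 12.1 FPKM in shTPD52 (log2 fold change 0.35, SE 0.11, limma's adjusted p = 0.0576). PSMD7, the inactive partner of the deubiquitinase PSMD14, had the lowest, with 34.9, 33.1 and 34.9 FPKM in shCtrl and 30.5, 31.2 and 32.3 FPKM in shTPD52 (log2 fold change -0.13, SE 0.07, limma's adjusted p = 0.215). PSMD7 was the single proteasome gene with all 3 shTPD52 libraries below all 3 shCtrl libraries, and another gene on the opposite strand shares 30.7% of its exon bases. PSMD14, which strips ubiquitin from substrates, had 14.1, 15.2 and 15.8 FPKM in shCtrl and 17.0, 16.8 and 15.1 FPKM in shTPD52, with groups that overlapped (log2 fold change 0.12, SE 0.09, limma's adjusted p = 0.343). PSMD4, a ubiquitin receptor, had 57.9, 52.6 and 56.0 FPKM in shCtrl and 63.9, 56.7 and 71.9 FPKM in shTPD52, again with overlap (log2 fold change 0.20, SE 0.10, limma's adjusted p = 0.173). The remaining 7 had log2 fold changes between -0.08 for PSMD2, a base scaffold whose sign flips with median-ratio scaling and when corrected for length and GC, and 0.28 for PSMD13.

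To show what the risers share beside their values, the 250 bases before the gene start in RefSeq (GRCh38.p14) were searched on both strands for 3 motifs. Windows were found for 37 of the 42 genes and 7 of the 9 risers, all but PSMB1 and PSMB7. The core of the antioxidant response element, TGACNNNGC, was in 11 of the 37 (29.7%) and in 13.2% of 27305 genes with a window; it was in 4 of the 7 risers and 7 of the 30 others. The core of the interferon-stimulated response element, GAAA followed by 2 bases of any kind and GAAA again, was in 4 of the 37 (10.8%) and in 3.71% of all genes, namely the risers PSMA4, PSMB10 and PSME2 and, among the others, PSMB4. The CCAAT box was in 17 of the 37 (45.9%) and in 37.0% of all genes, among them 3 of the 7 risers. A match is a run of letters and says nothing of binding, and these shares were not tested.

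The matches before the RefSeq starts of risers are shown because NFE2L1, which reads the antioxidant element, and other interferon-responsive genes are measured below. Each line gives the motif in capitals with 10 bases on either side, 5′ to 3′ on the gene's strand. The antioxidant response element core lies 86 bases before the start of PSME1, 175 before PSME2, 126 before PSMA4 and 148 before PSMB9, where it is the reverse complement. Starts are those of RefSeq, several of which lie inside the gene spans given above, and the PSMA4 matches lie before different starts:
PSME1, chr14:24136098-24136126, plus strand: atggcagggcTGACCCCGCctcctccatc
PSME2, chr14:24146767-24146795, minus strand: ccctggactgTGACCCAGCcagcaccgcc
PSMA4, chr15:78540650-78540678, plus strand: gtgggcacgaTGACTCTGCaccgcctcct
PSMB9, chr6:32854034-32854062, plus strand: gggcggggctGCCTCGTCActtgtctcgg
The interferon-stimulated response element core lies 28 bases before the start of PSME2, 21 before PSMB10 and 240 before PSMA4:
PSME2, chr14:24146619-24146648, minus strand: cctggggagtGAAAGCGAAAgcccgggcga
PSMB10, chr16:67936852-67936881, minus strand: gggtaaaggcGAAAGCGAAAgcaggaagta
PSMA4, chr15:78540155-78540184, plus strand: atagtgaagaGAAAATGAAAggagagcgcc
The matches in PSME2 and PSMB10 carry the same 10 letters, GAAAGCGAAA, close before the RefSeq start. In GENCODE release 29, 250 of the 250 bases of the PSME2 window and 237 of those of PSMB10 are annotated as untranslated transcript, so these matches are not shown to lie outside the transcribed gene. The wider window of PSME1, the gene with the smallest p, from 250 to 37 bases before its start, is rich in G and C and holds the antioxidant match and none of the interferon element:
PSME1, chr14:24135944-24136157, plus strand: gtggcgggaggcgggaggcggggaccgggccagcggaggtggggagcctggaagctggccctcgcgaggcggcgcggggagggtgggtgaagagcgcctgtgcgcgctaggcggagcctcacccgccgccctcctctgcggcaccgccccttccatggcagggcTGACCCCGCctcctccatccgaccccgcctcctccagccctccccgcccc

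The transcription factors that drive proteasome genes were measured in a list of 9 genes for the NFE2L1 pathway. NFE2L1 and the small MAF genes MAFG and MAFK fell, while 6 did not pass. That is 33.3% of the 9, where 12.7% of all genes were called lower, and the median log2 fold change was -0.24. NFE2L1 stood at 68.2, 73.5 and 71.6 FPKM in the shCtrl libraries (replicates 1, 2 and 3) and at 43.7, 56.2 and 39.8 FPKM in the shTPD52 libraries. Every shTPD52 library was below every shCtrl library, and the mean fell from 71.1 ± 2.68 to 46.6 ± 8.55 FPKM (SD, n = 3 each; log2 fold change -0.62, SE 0.13, limma's adjusted p = 0.0202). MAFG had 10.4, 9.92 and 10.8 FPKM in shCtrl and 6.49, 7.36 and 7.11 FPKM in shTPD52 and fell by 0.54 in log2 units (SE 0.09, limma's adjusted p = 0.0129). MAFK had 5.33, 5.66 and 5.53 FPKM in shCtrl and 3.05, 4.05 and 3.16 FPKM in shTPD52 and fell by 0.62 (SE 0.12, limma's adjusted p = 0.0175). These 3 falls stood beside rises in PSME1, PSME2, PSMA4 and PSMB9, whose upstream windows hold the element, and whether they are linked was not tested. The element is also in the windows of 7 of the 30 other proteasome genes with a window. None of them was called in the reported fit, where PSMD9 was under the filter and not tested. Under some alternatives PSMB3, PSMC5 and PSMD12 were called higher, and PSMD5 and PSME4 lower. The stretch at PSMB9 also lies upstream of TAP1, a minus-strand gene measured below whose span ends at chr6:32853978.

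**Figure D5:**
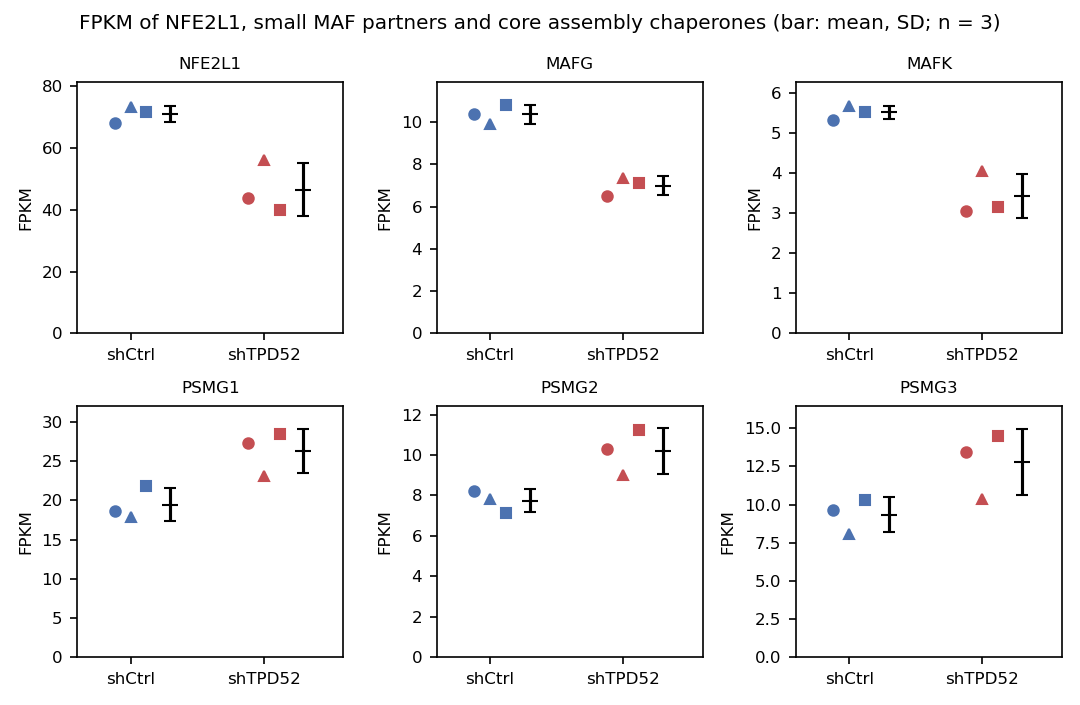
FPKM of NFE2L1, its small MAF partners and 3 core assembly chaperones, 1 point per library (circle, triangle and square for replicates 1, 2 and 3; blue shCtrl, red shTPD52) with the group mean and SD. NFE2L1, MAFG and MAFK have all red points below the blue ones, and PSMG1 and PSMG2 all red points above.

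All 9 values of that list were negative on the deposited scale, where the median of all genes was -0.11 as well; with median-ratio scaling 2 turned positive, and when corrected for length and GC 3. NFE2L1, MAFG and MAFK were called lower under each of the 4 scalings. NFE2L2, the relative of NFE2L1 that answers oxidative stress, measured 28.1 ± 0.265 FPKM in shCtrl and 26.5 ± 3.26 FPKM in shTPD52 (SD, n = 3 each; log2 fold change -0.09, limma's adjusted p = 0.512), and its sign flips with median-ratio scaling and when corrected for length and GC; it was named after its values were seen. DDI2, the protease that cuts NFE2L1 into its active form, and NGLY1, which removes its sugars, had log2 differences of -0.16 and -0.24 and did not pass (limma's adjusted p = 0.394 and 0.144). NFE2L1 and MAFK lost their calls without shTPD52 replicate 1 or any 1 shCtrl replicate, and MAFG without shTPD52 replicate 1 or shCtrl replicate 1 or 3 (limma's adjusted p up to 0.0894, 0.0851 and 0.0755). Without the filter on low values NFE2L1 and MAFK lost their calls as well (limma's adjusted p = 0.0744 and 0.0574).

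Of 16 genes for proteins that bind the proteasome, 3 fell and none rose (median log2 fold change -0.15, against -0.11 for all genes). Among all genes 12.7% were called lower, against 18.8% of these 16. At an unadjusted p under 0.05, 4 were higher and 6 lower, and limma-voom called 2 higher and 4 lower. UBE3C, a ligase that keeps slow substrates moving on the cap, had 7.01, 7.69 and 7.48 FPKM in shCtrl and 4.67, 5.60 and 4.29 FPKM in shTPD52 (log2 fold change -0.57, SE 0.11, limma's adjusted p = 0.0194). ZFAND5, which stimulates degradation by the 26S proteasome, had 40.4, 40.5 and 39.6 FPKM in shCtrl and 25.5, 33.1 and 21.1 FPKM in shTPD52 (log2 fold change -0.61, SE 0.15, limma's adjusted p = 0.0314). USP14, a deubiquitinase of the cap, had 12.9, 13.4 and 14.4 FPKM in shCtrl and 10.8, 11.4 and 9.36 FPKM in shTPD52 (log2 fold change -0.35, SE 0.10, limma's adjusted p = 0.0447). The groups did not overlap for any of the 3. USP14 passed under 5 of the 17 alternatives and was lost with each of the 4 scalings (adjusted p up to 0.0775) and without any single library but shTPD52 replicate 2 (up to 0.166). UBE3C and ZFAND5 passed under 12 and 11 (adjusted p up to 0.0928 and 0.111) and were lost without the filter and without shTPD52 replicate 1 or any 1 shCtrl replicate, ZFAND5 also without shTPD52 replicate 3. With median-ratio scaling 3 of the 16 were called higher and 2 lower, where 8.47% of all genes were called higher and 8.12% lower.

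Upstream of the cap, 1 of 6 ubiquitin and E1 enzyme genes (16.7%) rose and none fell, where 5.63% of all genes were called higher. At an unadjusted p under 0.05, 1 was higher and 1 lower, and limma-voom called 1 higher and 0 lower. With quantile normalization 1 was called higher and 2 lower, where 9.01% of all genes were called higher and 9.29% lower. RPS27A, which encodes ubiquitin fused to a ribosomal protein, had 69.4, 59.7 and 67.7 FPKM in shCtrl and 90.0, 82.0 and 115 FPKM in shTPD52 (log2 fold change 0.53, SE 0.13, limma's adjusted p = 0.0325). UBB, a polyubiquitin gene, had a log2 difference of 0.04 and did not pass (adjusted p by limma 0.699). The RPS27A call ended without the filter, when corrected for length and GC and without any single library but shTPD52 replicate 2 (adjusted p up to 0.112). Of 6 genes for the p97 segregase, which pulls ubiquitinated proteins out of complexes and membranes, and its cofactors, UBXN1 rose (56.4, 59.2 and 55.2 FPKM in shCtrl and 77.6, 63.8 and 87.1 FPKM in shTPD52; log2 fold change 0.41, SE 0.12, limma's adjusted p = 0.0469) and VCP, the segregase itself, had -0.06 (limma's adjusted p = 0.621). UBXN1 was the only call of these 6 (16.7%), against 5.63% of all genes called higher. UBXN1 was lost with median-ratio scaling (log2 fold change 0.53, adjusted p = 0.0514), without the filter, without the variance trend and without any single library but shTPD52 replicate 2 (adjusted p up to 0.156).

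Of 7 interferon-responsive antigen processing genes tested, TAPBP and B2M rose and 5 did not pass (median log2 fold change 0.04). These 2 are 28.6% of the 7, where 5.63% of all genes were called higher. TAPBP, the peptide-loading chaperone, had 29.5, 31.8 and 31.1 FPKM in shCtrl and 40.5, 38.1 and 36.8 FPKM in shTPD52 (log2 fold change 0.32, SE 0.08, limma's adjusted p = 0.0303). B2M, the light chain of MHC class I, had 209, 197 and 190.0 FPKM in shCtrl and 242, 234 and 264 FPKM in shTPD52 (log2 fold change 0.31, SE 0.08, limma's adjusted p = 0.0371). TAP1, a peptide transporter gene, lies within the annotated span of PSMB9, close to PSMB8, and was named after its values were seen. It had 6.79, 6.30 and 7.13 FPKM in shCtrl and 6.12, 6.0 and 5.79 FPKM in shTPD52 (log2 fold change -0.16, SE 0.09, limma's adjusted p = 0.215). When corrected for length and GC, its log2 fold change was -0.01 (limma's adjusted p = 0.889). For TAP1 all 3 shTPD52 libraries were below all 3 shCtrl libraries, where 28.3% of all genes did so. Those of PSMB8 and PSMB9 were above, where 13.8% of all genes did so. TAPBP and B2M lost their calls without the filter, without the variance trend and without any single library but shTPD52 replicate 2. B2M also lost its call with quantile normalization (log2 fold change 0.09) and when corrected for length and GC. Over these fits limma's adjusted p reached 0.120 for TAPBP and 0.332 for B2M. NLRC5 was under the filter, and the tissue-restricted core genes PSMA8 and PSMB11 were not analysed here.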

How the data were processed

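RNA from NCI-H295R cells was measured in 3 shCtrl and 3 shTPD52 libraries, grouped by sample title. The authors deposited FPKM per gene. Per the submitters' processing notes, HISAT2 2.2.1, featureCounts 2.0.3 and GRCh38 (hg38) were used, with no roles stated. The annotation, the handling of strand and of shared reads, and any read filter were not given in those sources. Genes averaging at least 1 FPKM were tested on log2(FPKM + 0.5) with limma 3.58.1 (R 4.3.3, variance trend, two-sided, Benjamini-Hochberg over all genes tested, threshold 0.05). The pseudocount makes fold changes of low genes smaller. Reads were worked back from FPKM with exon lengths of GENCODE release 29 or searched lengths, and 97.1% to 97.2% of values above 0 came out whole within 0.02 reads. limma-voom on these reads called 762 genes higher and 2119 lower. Depth was between 29544341 and 38396624 reads. Coordinates are those of GRCh38, and promoter windows are from RefSeq GRCh38.p14.

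The genes and lists were chosen with earlier results of these data known. Values in every library are given for genes past the threshold, the catalytic subunits and their exchange partners, PSMD4, PSMD14, POMP, PSME1 to PSME4, and the highest and lowest of each group. From each other list up to 3 past the threshold were taken by smallest p. Genes named beyond that rule (PSMA1, PSMA2, PSMA5, PSMA6, PSMB2 to PSMB4, PSMC1, PSMC2, PSMD2, PSMD5, PSMD9, PSMD13, PSMG3, NFE2L2, DDI2, NGLY1, UBB, VCP and TAP1) were chosen after their values were seen. Some genes of the lists outside the 42 are not reported here. Alternatives were 2 pseudocounts, 2 filters, 4 scalings, voom, no variance trend, a replicate block and each library left out.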

Additional observations from a re-analysis of the deposited data

How the results depend on the processing

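Of the 9 proteasome genes called, none changed sign under any of the 17 alternatives, and 34 of the 40 tested kept theirs. With no filter, 531 genes were called (177 higher, 354 lower) and 1 proteasome gene, and the median log2 fold change was 0.21 for the alpha ring and -0.0678 for the assembly factors. These medians take in PSMA2 and PSMD9, which were otherwise under the filter. With median-ratio scaling, 1083 genes were higher and 1038 lower, with 16 proteasome genes called, and medians were 0.38 for all proteasome genes, 0.45 for the alpha ring, 0.44 for the ATPases, 0.31 for the other cap subunits, 0.12 for the assembly factors and 0.32 for the activators. With quantile normalization 1152 genes were higher, and medians were 0.44 for the alpha ring and 0.0975 for the assembly factors. Rescaled to non-mitochondrial reads, they were 0.34 for all proteasome genes, 0.27 for the other cap subunits, 0.0755 for the assembly factors and 0.27 for the activators. After the length and GC correction 1359 genes were higher, with 18 proteasome genes called and medians of 0.32 for all proteasome genes, 0.25 for the other cap subunits, -0.0748 for the assembly factors and 0.29 for the activators. With a filter at 5 FPKM the other cap subunits stood at 0.16, a median that leaves out PSMD1. Without the variance trend 5 proteasome genes were called.

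Signs turned in 7 genes. With quantile normalization PSMA7 was at -0.0052, PSMB5 at -0.0644 and PSMB6 at -0.11. With median-ratio scaling PSMD2 was at 0.0425 and NFE2L2 at 0.0294. After the length and GC correction PSMB5 was at -0.0241, PSMB6 at -0.0639, PSMD2 at 0.0649, PSMD10 at -0.0748, PSME4 at 0.0079 and NFE2L2 at 0.0424. Other genes named above turned as well. DDI2 was positive after the length and GC correction, and VCP with that correction, median-ratio scaling and rescaling to non-mitochondrial reads. UBB was negative with quantile normalization and after the length and GC correction. The cause was not tested for any of these.

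With each library left out in turn, the genes called ranged from 93 (without shCtrl replicate 3) to 5822 (without shTPD52 replicate 2), those higher from 50 to 1611 and those lower from 43 to 4211. The proteasome genes called ranged from 0 to 25, those higher from 0 to 23 and those lower from 0 to 2. Median log2 fold changes ranged from 0.22 to 0.31 for all proteasome genes, from 0.18 to 0.41 for the alpha ring and from 0.15 to 0.17 for the other cap subunits. PSMA1 fell under the filter without shTPD52 replicate 1 or 3, so the medians of those fits leave it out. The log2 fold change ranged from -0.0326 to 0.13 for PSMB5, from -0.0862 to 0.11 for PSMB6 and from -0.0235 to 0.0183 for PSMD10.

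The replicate numbers are shared between the groups, but the labels do not say what they mark. Same-numbered libraries deviated together with correlations of 0.045, 0.248 and 0.022, and not every library correlated best with its own number. With the replicate block 3064 genes were called, 906 higher and 2158 lower, and 12 proteasome genes, adding PSMB8, PSMC3 and PSMC5 to the 9. Not counting PSMA1 moved the alpha ring median to 0.21. That alternative and those for genes outside the 42 were added after seeing the data. The 3 libraries a group set the precision, and for PSMA1, PSMA2 and PSMD9, with at most 223 reads a library, so does counting.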
